A study of Homo sapiens with 5 samples.

Results

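The secreted products of mammary luminal cells are described here by 10 genes: the secretoglobins SCGB2A2, SCGB2A1 and SCGB1D2, the small mucin MUCL1, the apocrine proteins PIP and AZGP1, the defence proteins LTF and LCN2, the milk protein LALBA, and ELF5, a transcription factor of the secretory lineage. They were chosen by name, with their FPKM values in this contrast already known, so their differences are a description and not a test. All 10 were found among the 18512 gene symbols of the authors' deposited table. The 3 persister libraries held BT474 cells left after lapatinib, a dual blocker of EGFR and HER2 signalling, had been given at 2 µM for 9 days in 0.01% DMSO, renewed every 3 days. The 2 parental libraries came from BT474 cells kept over the same time in 0.01% DMSO with no lapatinib. BT474 is a breast carcinoma line with luminal features and amplified HER2, so each group samples 1 line in culture, without the stroma of a gland. The submitters describe the libraries as biological replicates.

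Luminal cells of the breast make the proteins of milk and of the fluid that keeps the ducts moist. Prolactin, acting through its receptor and STAT5, and ELF5 drive the alveolar branch of this programme, while steroid receptors act on the ductal and apocrine branch, to which mammaglobin, PIP and AZGP1 belong. Secretoglobins are small proteins that pair through disulfide bonds. Mammaglobin A, the product of SCGB2A2, is found bound to lipophilin B, the product of SCGB1D2, and is used as a marker of breast tumour cells.

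The table gives a single FPKM per gene for each group, a fragment count scaled to transcript length and library depth. Levels can therefore be compared between genes per length, but no SD, n or depth stands behind a value, and the spread between libraries enters only through the authors' q-value. Differences below are persister minus parental on the log2(FPKM + 1) scale, and folds are plain ratios of FPKM. Calls used a threshold of 0.05 on the q-value of the authors' deposited table, and the 13617 genes with a q-value below 1 were taken as tested. Over 10161 genes with at least 1 FPKM in both groups the median log2 ratio of persister to parental FPKM was -0.13, and a direction that turns round when the columns are rescaled is named as such. In bulk RNA, fewer cells that make a product and less of its RNA per cell cannot be told apart. Exposure to the drug and selection of surviving cells go together in the design and cannot be told apart either.

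The promoters of both mammaglobin genes are shown first, because these paralogues have similar start regions and very different levels and falls. Each window runs from 250 bases before to 50 bases after the RefSeq transcript start (build GRCh38.p14, plus strand, 5′ to 3′). SCGB2A2 lies at chr11:62269908-62270207 and SCGB2A1 at chr11:62208423-62208722. Capitals mark aligned runs of at least 8 identical bases, 120 bases in each window.
SCGB2A2: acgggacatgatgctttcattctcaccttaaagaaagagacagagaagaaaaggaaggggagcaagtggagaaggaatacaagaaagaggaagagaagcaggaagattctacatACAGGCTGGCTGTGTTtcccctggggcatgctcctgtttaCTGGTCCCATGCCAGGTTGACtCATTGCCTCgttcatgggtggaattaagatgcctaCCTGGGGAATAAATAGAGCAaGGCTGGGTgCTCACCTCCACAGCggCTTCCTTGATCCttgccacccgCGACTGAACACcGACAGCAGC
SCGB2A1: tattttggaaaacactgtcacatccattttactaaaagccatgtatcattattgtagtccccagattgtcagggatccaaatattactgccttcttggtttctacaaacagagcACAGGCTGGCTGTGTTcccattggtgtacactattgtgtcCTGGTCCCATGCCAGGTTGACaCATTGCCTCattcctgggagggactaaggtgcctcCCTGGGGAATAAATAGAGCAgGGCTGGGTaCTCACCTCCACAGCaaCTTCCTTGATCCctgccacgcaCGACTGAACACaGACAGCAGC
Over the whole window 67.4% of 310 alignment columns were identical, with a longest shared run of 21 bases. The other 44 pairs among the 10 promoters had between 41.9% and 51.1% identical columns and shared no run over 12 bases. Most of the shared runs lie in the second part of the window, toward the transcript start.

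Most of these products had far lower FPKM in persister cells, and the largest falls were those of MUCL1 and SCGB2A2, which had the highest parental levels of the set. Of the 10 genes, 8 were tested. By the q-values of the authors' deposited table, 7 of these 8 were lower, against 39.0% of all tested genes, and 1 was called higher, against 30.9%. The other 2, LTF and LALBA, had a q-value of 1 and were under 0.05 FPKM in both groups. The same 7 genes were at least 2-fold lower, of 8 with 1 FPKM or more in one group or both, against 9.97% of all 10949 genes at that level with an estimate. The members were picked with this contrast known, so the counts describe the choice. The median difference was -2.75 over the 8 tested genes of the set, against -0.04 over all tested genes. With the 2 untested genes included it was -1.93 over all 10.

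**Figure D1:**
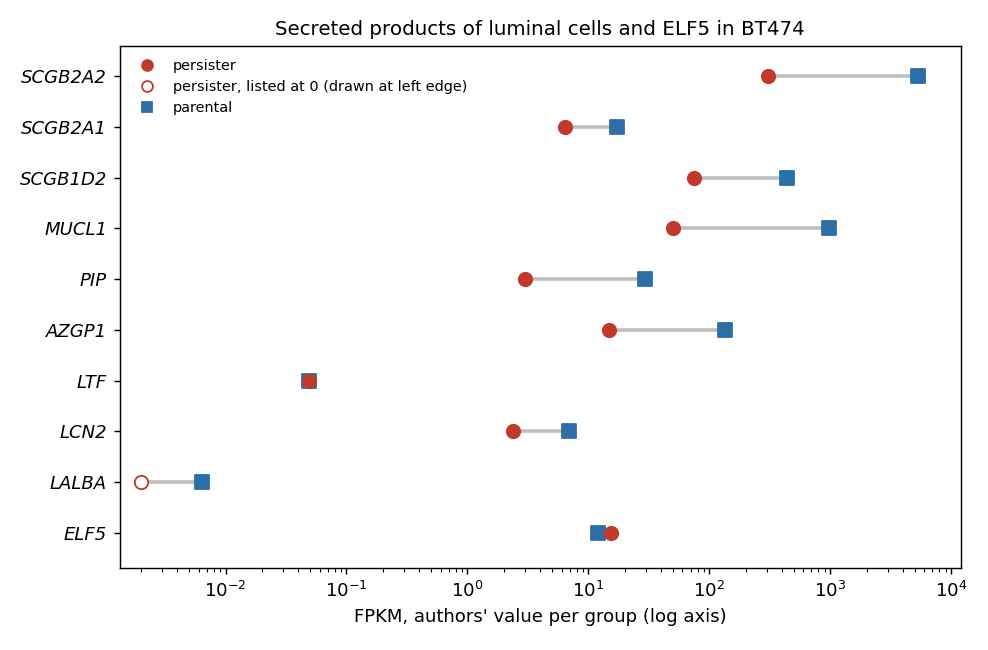
FPKM of each of the 10 genes on a log axis, with red circles for persister cells and blue squares for parental cells, each the authors' single value for the group. The persister value lies left of the parental one for 7 genes above 1 FPKM, from SCGB2A2 (308 FPKM in persister, 5327 FPKM in parental cells) to LCN2 (2.40 FPKM in persister, 6.94 FPKM in parental cells), and right of it for ELF5 (15.4 FPKM in persister, 11.9 FPKM in parental cells), while LALBA, listed at 0 in persister cells, has an open symbol at the left edge.

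SCGB2A2, which encodes mammaglobin A, was at 308 FPKM in persister cells, against 5327 FPKM in parental cells. It had the highest listed FPKM of the parental column and ranked 87th in the persister column. These ranks hold among listed values only, since 1527 rows were listed at 0 in both groups, which is not read as absence. The fall of SCGB2A2 was 17.3-fold, a difference of -4.11. Its q-value, like those of the other 6 lower genes, stands at 0 in the authors' deposited table. Relative to the median gene at 1 FPKM or more in both groups the fall was 15.8-fold. Measured against the luminal keratin KRT19 within each column, SCGB2A2 had 0.493 times the KRT19 value in persister cells and 6.33 times that value in parental cells. This ratio does not depend on how the columns were scaled to each other.

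SCGB1D2, the lipophilin B partner of mammaglobin A, was at 74.1 FPKM in persister cells and 438 FPKM in parental cells, a 5.92-fold fall and a difference of -2.55. SCGB2A1, which encodes mammaglobin B, was at 6.42 FPKM in persister cells and 17.4 FPKM in parental cells, a 2.71-fold fall and a difference of -1.31. All 3 secretoglobins were thus lower, by folds that differed widely. SCGB2A2 exceeded SCGB1D2 by 4.15 times in persister cells and by 12.2 times in parental cells. It exceeded SCGB2A1 by 47.9 times in persister cells and by 306 times in parental cells. The order of the 3 levels was the same in both groups, with the gaps narrower in persister cells. An antisense transcript annotated in GENCODE 29 overlaps SCGB2A1 and SCGB1D2, and the libraries did not keep strand, so its reads cannot be told apart from theirs. SCGB2A2 overlaps no annotated gene.

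The 3 genes lie side by side on chromosome 11 among other members of the family. In the gene order of RefSeq (GRCh38.p14), SCGB1D1 precedes SCGB2A1 and SCGB1D4 follows SCGB2A2. SCGB1D1 was at 0.00914 FPKM in persister cells and 0.0150 FPKM in parental cells, and SCGB1D4 was listed at 0 in both. These 2 genes were not covered by the authors' test, although the transcripts of SCGB1D2 and SCGB1D1 are 74.9% identical over their alignment and share a run of 44 bases. SCGB2A2 and SCGB2A1 transcripts are 71.8% identical with a shared run of 29 bases. Whether any reads of one gene were assigned to the other was not tested and cannot be read from these values. Outside the family, the neighbour ASRGL1 was called lower at 0.565 FPKM in persister cells and 1.54 FPKM in parental cells. INCENP, a chromosomal passenger protein of mitosis, was called lower at 4.78 FPKM in persister cells and 17.9 FPKM in parental cells. FTH1, the ferritin heavy chain next to it, was called lower at 530 FPKM in persister cells and 736 FPKM in parental cells, a ratio of 0.720.

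**Figure D2:**
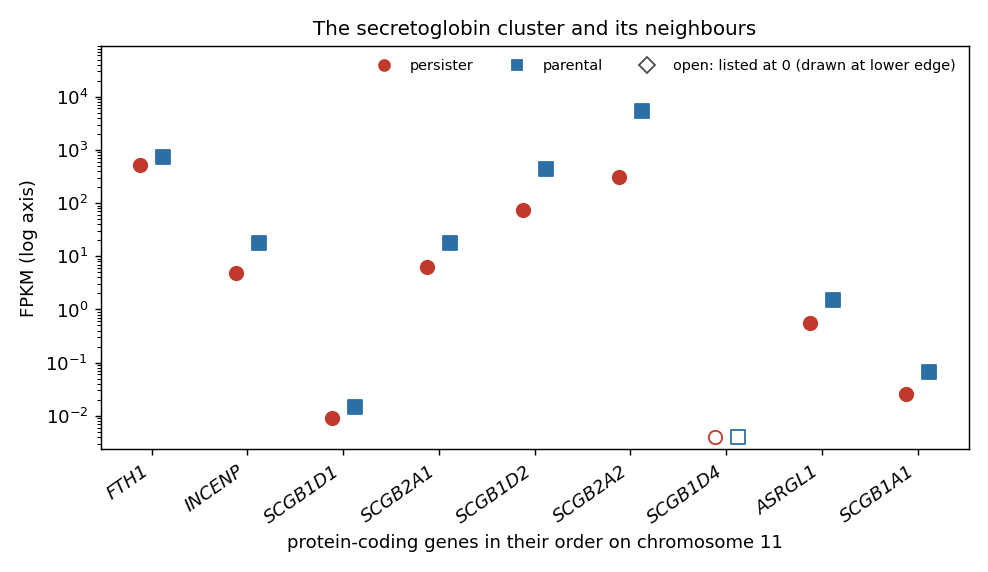
FPKM on a log axis for the secretoglobin genes and their neighbours in their order along chromosome 11, with red circles for persister cells and blue squares for parental cells. SCGB2A1, SCGB1D2 and SCGB2A2 rise in that order in both groups and are all lower in persister cells, while SCGB1D1 stays under 0.02 FPKM and SCGB1D4 is listed at 0, drawn as open symbols at the lower edge.

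MUCL1, also called small breast epithelial mucin, was at 50.1 FPKM in persister cells and 973 FPKM in parental cells. Its 19.4-fold fall, a difference of -4.25, was the largest of the 10 genes. Its rank was 1006th in the persister column and 14th in the parental column. SCGB2A2 and MUCL1, on chromosomes 11 and 12, stood at 6.14 to 1 in persister cells and 5.48 to 1 in parental cells. They had the largest falls of a set chosen with this contrast known, so no link between them is read from this.

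The apocrine pair was lower as well. PIP, the prolactin-inducible protein also known as gross cystic disease fluid protein, was at 2.97 FPKM in persister cells and 29.5 FPKM in parental cells, a 9.95-fold fall. AZGP1, the zinc-binding glycoprotein of glandular secretions, was at 14.7 FPKM in persister cells and 134 FPKM in parental cells, a 9.12-fold fall. AZGP1 exceeded PIP by 4.97 times in persister cells and by 4.55 times in parental cells. Both genes lie on chromosome 7, apart from each other.

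The defence proteins were low in both groups. LCN2, the iron-siderophore binding lipocalin, was at 2.40 FPKM in persister cells and 6.94 FPKM in parental cells, a 2.89-fold fall and a difference of -1.22. LTF, the iron-binding lactoferrin of milk, was at 0.0493 FPKM in persister cells and 0.0487 FPKM in parental cells, and was not tested. LALBA, the alpha-lactalbumin that turns a galactosyltransferase into lactose synthase, was listed at 0 in persister cells and at 0.00639 FPKM in parental cells. No fold is given for these 2 genes. The lactation products of the set were thus listed near 0 in the parental column, in which SCGB2A2 had the highest listed FPKM.

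ELF5, the ETS factor that drives alveolar differentiation in the mouse mammary gland, went the other way. It was at 15.4 FPKM in persister cells and 11.9 FPKM in parental cells, a ratio of 1.29 and a difference of 0.34, with a q-value of 4.31e-04 in the authors' deposited table. The rise was small beside the falls. It was 1.65-fold when both columns were scaled to the same sum.

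The 10 genes made up 0.182% of the summed FPKM of the persister column and 2.08% of that of the parental column. SCGB2A2 alone took 0.118% in persister cells and 1.60% in parental cells, MUCL1 took 0.0192% in persister cells and 0.292% in parental cells, and SCGB1D2 took 0.0285% in persister cells and 0.132% in parental cells. Without SCGB2A2, the other 9 genes took 0.0639% in persister cells and 0.491% in parental cells. The column sums themselves were 260213 FPKM in persister cells and 333324 FPKM in parental cells, and the 10 genes made up 8.84% of the gap between them. Because these transcripts are short (470 bases for MUCL1, 505 for SCGB2A2, 480 for SCGB1D2), their share of sequenced fragments was lower, at 0.0403% in persister cells and 0.450% in parental cells when FPKM was multiplied by transcript length.

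SCGB2A2 was also set beside other transcripts abundant in parental cells. Of 573 genes with at least 100 FPKM in parental cells and an estimate, 15.9% were at least 2-fold lower in persister cells. A minimum set on parental cells alone favours genes that fell, and MUCL1, SCGB1D2 and AZGP1 pass it only through their parental value, so nothing about the set is read from this share. The 5 other genes of that abundance with ratios nearest to that of SCGB2A2 (0.0577) were SCD, CEACAM6, DUSP4, AURKA and MGP, with ratios of 0.0777, 0.0805, 0.0893, 0.111 and 0.126. SCD, a fatty acid desaturase, was at 32.0 FPKM in persister cells and 411 FPKM in parental cells. CEACAM6, an adhesion molecule of the CEA family, was at 34.1 FPKM in persister cells and 424 FPKM in parental cells. DUSP4 is a phosphatase of ERK, AURKA a mitotic kinase and MGP a secreted inhibitor of calcification. This likeness rests on 2 group values per gene.

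**Figure D3:**
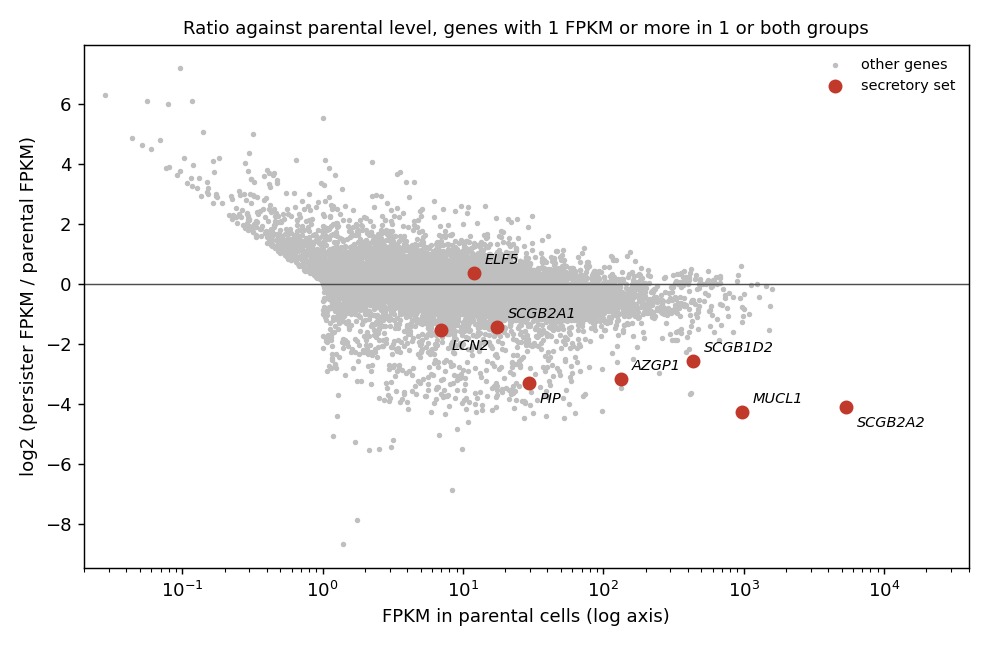
The log2 ratio of persister to parental FPKM against parental FPKM (log axis), 1 point per gene with 1 FPKM or more in one group or both and a value above 0 in each. Red points are 8 of the 10 genes described, of which 7 lie below 0, down to ratios of 0.0577 for SCGB2A2 and 0.0515 for MUCL1, and ELF5 lies just above 0.

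By share of the column sum, SCGB2A2 lost 1.48 percentage points and MUCL1 0.273. The largest losses elsewhere among genes with an estimate were those of the cytoskeletal actins ACTB (0.255 points) and ACTG1 (0.147 points) and the respiratory chain subunit COX8A (0.139 points). RPL23, a ribosomal protein gene that every cell uses, lost 1.52 points, but it was listed at 0 in persister cells, against 5076 FPKM in parental cells, with a q-value listed as 1. It is among 145 genes without an estimate, and ERBB2, the HER2 gene that the line carries in many copies, was listed at 0 in both groups. A value of 0 in this table is therefore not read as absence. With only rows above 0 in both groups in the sums, the 10 genes took 0.182% in persister cells and 2.12% in parental cells.

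Promoter windows of all 10 genes were in the RefSeq table and were searched on both strands for short motifs, without matches overlapping each other. PIP is shown because it alone held more than 1 kind of match (chr7:143131827-143132126, GRCh38.p14, plus strand), with matches in capitals.
PIP: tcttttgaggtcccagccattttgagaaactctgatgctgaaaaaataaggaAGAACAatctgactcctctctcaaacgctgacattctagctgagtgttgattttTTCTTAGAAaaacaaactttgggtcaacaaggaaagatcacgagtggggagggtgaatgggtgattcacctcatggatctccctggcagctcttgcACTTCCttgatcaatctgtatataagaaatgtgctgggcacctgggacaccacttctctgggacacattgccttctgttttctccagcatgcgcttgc
From the first transcribed base counted as 1, PIP held the STAT5 motif TTCNNNGAA from position -144, the glucocorticoid receptor core AGAACA from -198, and the ETS core GGAAGT on the other strand from -48. These motifs were in 7.66%, 14.8% and 22.8% of all 35116 promoters. The ETS core was also in the windows of SCGB2A1 and LTF. The FOXO motif GTAAACA, present in 3.42% of promoters, was in the windows of SCGB2A2 (other strand, from -102) and ELF5 (from -193). The estrogen receptor core AGGTCA, in 13.8% of promoters, was found in LALBA alone, and TATAAA, in 11.5%, in none of the 10. SCGB1D2, MUCL1, AZGP1 and LCN2 held none of the 6 motifs in these windows.

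Other genes of mammary secretion were called in both directions. Their counts stand beside 39.0% of all tested genes called lower and 30.9% called higher, and nothing particular to a list is read from them. Beyond the 3 in the set, 8 secretoglobins were in the table, all under 1 FPKM in both groups, and 2 were tested. SCGB2B2 was called higher at 0.585 FPKM in persister cells and 0.193 FPKM in parental cells, while SCGB3A1 was not called at 0.138 FPKM in persister cells and 0.201 FPKM in parental cells. Of 18 caseins and other milk proteins, 17 were in the table and 8 were tested, with 4 lower and 2 higher and a median difference of -0.13. The caseins CSN1S1, CSN2 and CSN3 were listed at 0 in both groups. The mucin MUC1 of the milk fat globule was called lower at 42.8 FPKM in persister cells and 55.3 FPKM in parental cells. The folate receptor FOLR1 was called lower at 0.389 FPKM in persister cells and 1.41 FPKM in parental cells. The lipase CEL was called higher at 0.915 FPKM in persister cells and 0.556 FPKM in parental cells, as was the fatty acid binding protein FABP3 at 0.689 FPKM in persister cells and 0.444 FPKM in parental cells. B4GALT1, the galactosyltransferase that LALBA modifies, was called lower at 25.2 FPKM in persister cells and 28.1 FPKM in parental cells, a ratio of 0.899 with a q-value of 0.0495 in the authors' deposited table, which became 1.15 at equal column sums.

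Of 15 tested genes of the prolactin receptor pathway, 8 were called higher, against 30.9% of all tested genes, and 5 lower, against 39.0%. Their median difference was 0.13. The receptor PRLR was at 50.0 FPKM in persister cells and 40.1 FPKM in parental cells, and STAT5B at 7.80 FPKM in persister cells and 5.20 FPKM in parental cells, both called higher. Among feedback inhibitors of cytokine receptors, SOCS2 rose to 9.15 FPKM in persister cells, against 2.02 FPKM in parental cells, and SOCS3 to 1.16 FPKM in persister cells, against 0.288 FPKM in parental cells. SOCS1 was not called at 2.15 FPKM in persister cells and 1.72 FPKM in parental cells, nor was CISH, another STAT5 target, at 14.4 FPKM in persister cells and 13.9 FPKM in parental cells. Cyclin D1 (CCND1) fell to 50.4 FPKM in persister cells, against 110 FPKM in parental cells, and the kinase gene AKT1 to 44.5 FPKM in persister cells, against 85.7 FPKM in parental cells.

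Luminal and hormone-responsive transcription factors were called lower in 8 of 18 tested genes and higher in 6, near the shares over all tested genes (39.0% lower and 30.9% higher). Their median difference was -0.10, and 0.02 relative to the median of genes at 1 FPKM or more in both groups, so its sign depends on scaling. NR3C1, the glucocorticoid receptor, rose to 9.02 FPKM in persister cells, against 2.89 FPKM in parental cells. GATA3 was higher by a ratio of 3.08. XBP1 and SPDEF, both known for secretory cell differentiation, were lower by ratios of 0.439 and 0.406. PGR, the progesterone receptor gene, was listed at 128 FPKM in persister cells and 21.9 FPKM in parental cells but had no estimate in the comparison, and no change is read from it.

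Apocrine and hormone-responsive genes outside the set were called lower in 6 and higher in 5 of 12 tested, against 39.0% lower and 30.9% higher over all tested genes. Their median difference was -0.15, and -0.82 with genes under 1 FPKM in both groups left out. With a difference of at least 1 also required, 5 were lower and 1 higher. The lipoxygenase ALOX15B fell to 0.571 FPKM in persister cells, against 5.16 FPKM in parental cells. FASN and TFF3, a fatty acid synthase and a trefoil peptide, were lower by ratios of 0.315 and 0.323. CLDN8, a claudin, rose to 12.3 FPKM in persister cells, against 4.96 FPKM in parental cells. Among 16 tested defence proteins of secretions, 6 were lower and 4 higher, near the shares over all tested genes (39.0% lower and 30.9% higher), with a median difference of -0.16. SLPI, the secretory leukocyte protease inhibitor, fell to 6.76 FPKM in persister cells, against 47.1 FPKM in parental cells. S100A9, a subunit of calprotectin, fell to 0.283 FPKM in persister cells, against 2.84 FPKM in parental cells. The cathelicidin gene CAMP fell to 0.0348 FPKM in persister cells, against 1.18 FPKM in parental cells, and the lipocalin gene APOD to 0.556 FPKM in persister cells, against 2.05 FPKM in parental cells. Clusterin (CLU) rose to 119 FPKM in persister cells, against 78.8 FPKM in parental cells. LYZ, lysozyme, was not called at 4.06 FPKM in persister cells and 4.61 FPKM in parental cells.

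**Figure D4:**
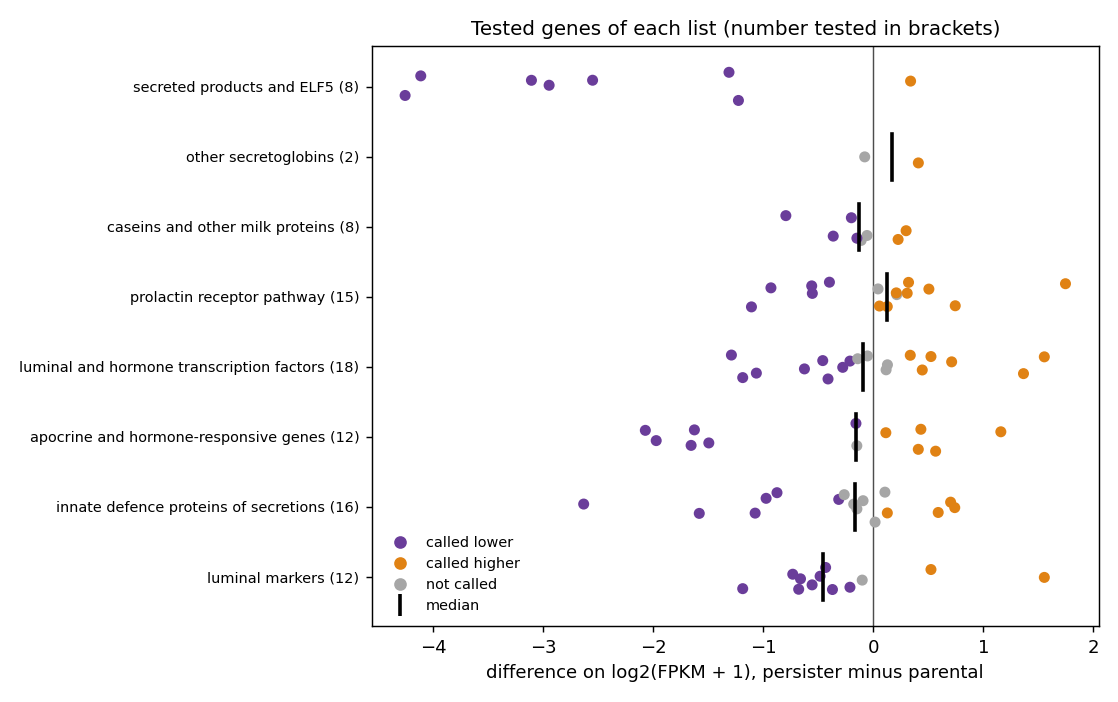
Difference on log2(FPKM + 1), persister minus parental, for each tested gene of the lists, coloured by call, with a black bar at the median of each list other than the top row. The top row, the genes chosen for this contrast, runs from -4.25 to 0.34, and the medians of the secretion-related lists below it lie between -0.16 and 0.17. The bottom row, the luminal markers, has a median of -0.46.

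The luminal label of the line held in both groups. The lowest of 12 luminal markers was at 18.2 FPKM in persister cells and 12.4 FPKM in parental cells. They had a summed level of 2585 FPKM in persister cells and 3816 FPKM in parental cells, and KRT19 was at 623 FPKM in persister cells and 841 FPKM in parental cells. Of these markers 9 were called lower, against 39.0% of all tested genes, and 2 higher, against 30.9%, with a median difference of -0.46. At equal column sums 1 of the 9, FOXA1, turned higher. The rest of the 9 then had ratios from 0.562 (XBP1) to 0.991 (KRT8), with KRT19 at 0.949. The size of these falls thus depends on scaling, and their part in the falls of the secreted products was not tested. Markers of other cell types had far lower summed levels in both groups. Summed over 10 genes each, basal and myoepithelial markers reached 5.70 FPKM in persister cells and 4.58 FPKM in parental cells, fibroblast markers 8.75 FPKM in persister cells and 13.5 FPKM in parental cells, nearly all of it COL1A1. Immune markers reached 6.09 FPKM in persister cells and 7.13 FPKM in parental cells, mostly LYZ and CD68. Of the fibroblast markers, THY1 and POSTN were listed at 0 in both groups, which is not read as absence, and PDGFRB was at 0.00239 FPKM in persister cells and 0.00287 FPKM in parental cells. PTPRC, the pan-leukocyte marker, was at 0.00588 FPKM in persister cells and 0.00138 FPKM in parental cells. The 8 endothelial markers summed to 0.888 FPKM in persister cells and 1.60 FPKM in parental cells, and the 6 adipocyte markers to 0.994 FPKM in persister cells and 0.581 FPKM in parental cells.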

How the data were processed

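Polyadenylated RNA of 3 persister and 2 parental BT474 libraries was analysed from 1 table of 18803 rows. Build hg18 and the tools Cuffdiff 2.0.2, Cufflinks, TopHat2 2.0.6 and CASAVA 1.8 are listed in the submitters' processing notes, without their settings. The authors gave 1 FPKM value per gene and group, per the file headers, with a q-value of their own comparison and a fold change that is text in 935 rows. The deposited q-value was under 0.05 for a call and below 1 for a tested gene; a listed 0 is below what the authors printed. The fold change, deposited by the authors as another column, served to find rows without an estimate (fold and q-value both 1 while FPKM values differed by over 0.6%). No counts or values per library were used, so depth, SD and intervals are unknown, and the planned limma fit could not be made.

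Where a symbol stood on several rows (269 symbols), the one highest in mean FPKM was kept, and 25 of 26 spreadsheet dates were given symbols through transcript identifiers. Transcript lengths (97.9% of genes) and overlaps came from GENCODE 29, promoters and gene order from RefSeq GRCh38.p14, and alignments from Biopython 1.88. Counting of calls was tested on simulated data. Members, gene lists and settings were chosen with earlier results of these data known. Named genes were the 10 members, up to 4 called genes with the largest difference in each other list (or the 2 highest where fewer than 2 were called), and 5 genes each by likeness to SCGB2A2 and by loss of share. CSN1S1, CSN2, CSN3, B4GALT1, PRLR, STAT5B, CISH, SOCS1, PGR, CLDN8, CLU, ERBB2, FOXA1, KRT8, KRT19, THY1, POSTN, PDGFRB and PTPRC, and the cluster neighbours, were named after their values were seen. Some genes that the rule picks are not reported here. Protein sequences were not used here.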

Additional observations from a re-analysis of the deposited data

How the results depend on the processing

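The 8 tested members kept their direction under each of 5 alternatives (another pseudocount, 3 scalings, summed rows), and 7 members were at least 2-fold lower under each scaling (8 with no minimum FPKM, by adding LALBA, listed at 0 in persister cells). LALBA, near 0 throughout, changed sign to 0.11 when centred on the median gene, as did the median of luminal and hormone transcription factors, to 0.0192. Scaling to the same column sum multiplied persister values by 1.28, which gave a 13.5-fold fall of SCGB2A2 and a 2.26-fold fall of LCN2. Without SCGB2A2 the share of the column sum was 0.0639% in persister and 0.491% in parental cells, and weighted by transcript length, chosen after seeing the data, 0.0403% in persister and 0.450% in parental cells, as follows from its construction. Among called genes of the lists, PLIN2, B4GALT1, FOXA1 and GRHL2 were called lower but higher in persister cells at equal column sums, B4GALT1 also at equal upper quartiles. Requiring a difference of at least 1 left 7 members lower and 0 higher. In the other lists it left 0 lower and 0 higher milk proteins, 0 higher secretoglobins, 1 lower and 1 higher prolactin pathway genes, 3 lower and 2 higher transcription factors, 5 lower and 1 higher apocrine genes, and 3 lower and 0 higher defence proteins. With genes under 1 FPKM in both groups left out, 0 secretoglobins, 0 milk proteins and 5 prolactin pathway genes were higher, and the median of apocrine genes was -0.82, since fewer genes were counted. No paired analysis was possible because the table holds 1 value per group, and for the same reason leaving out each replicate was not run.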

Other observations

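Outside the secretoglobin cluster, chromosomal neighbours of the secretory genes were called in both directions. The 3 genes that follow AZGP1 in coordinate order on chromosome 7 encode zinc finger factors, and none was called lower: ZKSCAN1 was called higher at 24.2 FPKM in persister cells and 17.9 FPKM in parental cells, ZNF3 was called higher at 22.4 FPKM in persister cells and 17.6 FPKM in parental cells, and ZSCAN21 was not called at 5.91 FPKM in persister cells and 4.43 FPKM in parental cells. GJC3, a connexin gene on the other side of AZGP1, was called lower at 0.117 FPKM in persister cells and 0.463 FPKM in parental cells. GSTK1, a glutathione transferase near PIP, was called higher at 114 FPKM in persister cells and 68.4 FPKM in parental cells. MUCL1 stood between genes at or near 0, among them the antimicrobial dermcidin gene DCD, listed at 0 in persister cells and 0.0298 FPKM in parental cells.

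ELF5 lies beside EHF, a related ETS factor of epithelial cells, and the neighbours were called in opposite directions. EHF was at 27.5 FPKM in persister cells and 36.8 FPKM in parental cells, a ratio of 0.746, against a ratio of 1.29 for ELF5. PTGES2 and CIZ1, near LCN2, were called lower by ratios of 0.635 and 0.855, smaller falls than that of LCN2 at 0.346, and CIZ1 turned higher at equal column sums. All genes in these paragraphs were named after their values were seen, and the differences between neighbours were not tested.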
